A study of Mus musculus with 9 samples.

Results

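The cytosolic ribosome, the particle that translates messenger RNA in every cell, is assembled from ribosomal RNA and the proteins that the genes described here encode. They were chosen by name, as every symbol of the form Rpl or Rps with a number and an optional a, x, l or y, with Rplp0, Rplp1, Rplp2 and Rpsa, and with a mean of at least 10 reads over the 9 libraries. In the table of 27179 genes, 83 symbols had such a name and 81 reached the minimum, 49 of the large and 32 of the small subunit. The genes below the minimum were Rpl10l, with 2 reads in all 9 libraries together, and Rpl39l, with 40. All 81 genes passed the filter on low counts and entered the tests. The choice used no difference between groups.

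RNA sequencing was performed on punches of the paraventricular nucleus (PVN) of the hypothalamus from wild type male C57BL/6 mice (C57BL/6J in the study's methods), with 3 independent mice in each of 3 groups. Control mice ate chow with 16% of calories from fat and drank tap water. HFD mice ate a diet with 60% of calories from fat for 12 weeks from an age of 5 weeks, and HFD+Mino mice ate the same diet and received minocycline, a tetracycline antibiotic, at 40 mg/kg/day in the drinking water for the last 6 weeks. The sample labels give an age of postnatal day 35 for all mice, which is the age at the start of the diet. A punch of tissue holds several cell types, and no cell type was isolated. Total counts ran from 17728590 to 42326213 per library.

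Ribosomal proteins are made in matched amounts, and each joins either the large subunit, which forms peptide bonds, or the small subunit, which reads the message. Their messenger RNAs are short, abundant and known as TOP messages, because they begin with a cytosine followed by a run of pyrimidines through which the kinase mTORC1 and the RNA-binding protein LARP1 control their translation. That control acts on translation, which was not measured here, and the values below are levels of messenger RNA.

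The start sites of some of these genes are shown because a pyrimidine run is the mark of TOP messages. Genes with a run are over-represented among those shown. Each line holds 35 bases before and 25 bases from the annotated start, read on the gene's own strand from RefSeq for GRCm38.p6, with capitals marking an unbroken run of C and T of at least 8 bases that touches the 5 bases on either side of the start.
Rps27 (chr3:90213624-90213683, minus strand): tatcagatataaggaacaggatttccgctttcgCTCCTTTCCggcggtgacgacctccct
Rps6 (chr4:86857343-86857402, minus strand): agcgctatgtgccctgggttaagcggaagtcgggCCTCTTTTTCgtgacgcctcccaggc
Rplp2 (chr7:141447616-141447675, plus strand): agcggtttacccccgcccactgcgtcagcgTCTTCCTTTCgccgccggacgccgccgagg
Rpl28 (chr7:4792930-4792989, plus strand): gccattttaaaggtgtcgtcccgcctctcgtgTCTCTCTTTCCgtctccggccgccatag
Rpl35 (chr2:39005107-39005166, minus strand): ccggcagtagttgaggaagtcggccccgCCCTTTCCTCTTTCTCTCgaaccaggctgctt
Rpl37a (chr1:72711225-72711284, plus strand): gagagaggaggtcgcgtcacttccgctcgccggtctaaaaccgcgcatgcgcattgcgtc
Rpl6 (chr5:121204466-121204525, plus strand): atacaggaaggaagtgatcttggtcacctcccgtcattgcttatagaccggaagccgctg

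A window was held for 59 of the 81 genes, and 21 of these had such a run, or 35.6%, against 9.30% of 27025 windows over all genes. Among the genes for mitochondrial ribosomal proteins, which serve a separate ribosome, 7 of 69 had one. The run length was set after some windows had been seen, and a window without a run says only that these letters are absent around the annotated start. Rpl37a and Rpl6, the genes without a run shown above, lie near opposite ends of the family in the comparison of HFD with Control below. The median log2 fold change of HFD against Control was 0.42 in the 21 genes with a run and 0.50 in the 38 without, and that of HFD+Mino against HFD was 0.74 and 0.84.

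Levels between genes were compared as CPM (reads after scaling each library to the same size) per kilobase, at the median length of a gene's annotated transcripts. Among the highest were Rps14 with 452, Rpl4 with 415 and Rplp1 with 412 CPM per kilobase. At the other end stood Rpl17 with 9.88, Rpl39 with 4.42, Rpl32l with 2.68 and Rpl3l, the paralog of Rpl3 known from muscle, with 0.298. Ribosomal protein genes have many near-identical copies in the genome, and reads shared with a copy could have been split or dropped in counting, so the level of any one gene is uncertain. Rps4l, Rpl32l and Rpl6l were the members whose annotated transcripts have no intron.

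The family moved as a block from library to library. Summed over the 81 genes, expression was 6032, 5146 and 3330 CPM in Control mice 1 to 3, 6906, 7506 and 6490 CPM in HFD mice, and 15862, 14529 and 5665 CPM in HFD+Mino mice. Every HFD library lay above every Control library, while the HFD+Mino mice split into a pair with the highest levels of all and mouse 3, which lay below every HFD mouse. The group means were 4836 ± 1378, 6967 ± 511 and 12019 ± 5543 CPM (SD, n = 3), and the highest library exceeded the lowest 4.76-fold. The first and second HFD+Mino mice averaged 2.68 times the sum of the third. The mitochondrial genome took 3.50%, 2.69% and 1.21% of the reads in Control, 3.67%, 3.21% and 3.14% in HFD, and 4.68%, 6.21% and 3.204% in HFD+Mino mice, highest in the pair and lowest in Control mouse 3, as the family was, and its part was not tested. In bulk tissue, fewer cells of a type and less RNA per cell cannot be told apart.

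**Figure D1:**
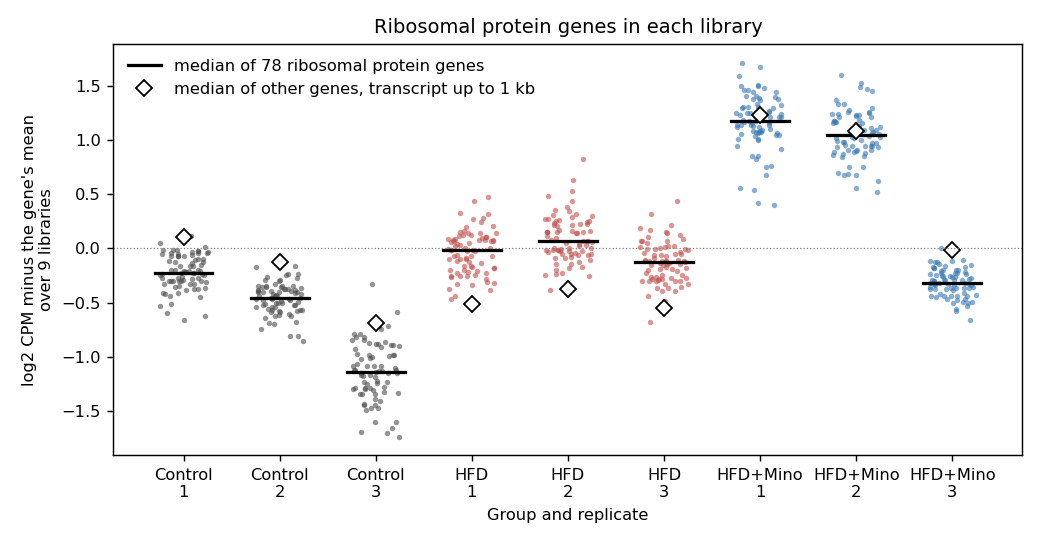
Each point is 1 of the 78 ribosomal protein genes with a mean of at least 100 reads, drawn as its log2 CPM minus its own mean over the 9 libraries (vertical axis) in each library (horizontal axis, by group and replicate). Bars are the medians, which ran from -1.14 in Control mouse 3 to 1.17 in HFD+Mino mouse 1, and diamonds are the medians of 892 other genes with transcripts up to 1000 nt.

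Among the 78 genes with a mean of at least 100 reads, all 78 were above their own 9-library mean in HFD+Mino mice 1 and 2, and 1 was in HFD+Mino mouse 3. In Control mice 1 to 3 the number was 3, 0 and 0, and in HFD mice 36, 47 and 19. The sample alone held 91.8% of the sum of squares of these deviations. Without that minimum of reads, the share was 82.3% for the 78 genes of the mitochondrial ribosome and 66.0% for 38 proteasome subunits. Over all other tested genes it was 0.335%, but scaling the libraries holds the mean over all genes near 0. That last share was thus largely set in advance and is no measure of how other genes move together. These shares describe the 9 libraries and were not tested.

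Other short genes did not follow the same course. Relative to its mean over the libraries, the median of 892 other genes with transcripts up to 1000 nt was 0.11, -0.12 and -0.69 on the log2 scale in Control, -0.51, -0.37 and -0.55 in HFD and 1.23, 1.08 and -0.02 in HFD+Mino mice. The same values for the ribosomal protein genes were -0.22, -0.46 and -1.14, then -0.02, 0.07 and -0.12, then 1.17, 1.05 and -0.32. Both sets were high in the first and second HFD+Mino mice, but in HFD the ribosomal protein genes stood above other short genes in all 3 mice, and in Control below them in all 3. The 5085 genes with transcripts over 4000 nt had medians of 0.37, 0.34 and 0.46 in HFD and of -0.41, -0.27 and -0.17 in HFD+Mino. With each gene taken at the median length of all its annotated transcripts, the median was 582.5 nt for the ribosomal protein genes and 1198 nt for other tested genes. The length classes and the trend on length instead used the gene's longest transcript with a RefSeq match, where it had one. These medians therefore do not give the gap in length on the scale of the classes. The part of transcript length in the group differences was examined only by removing each library's trend on length.

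**Figure D2:**
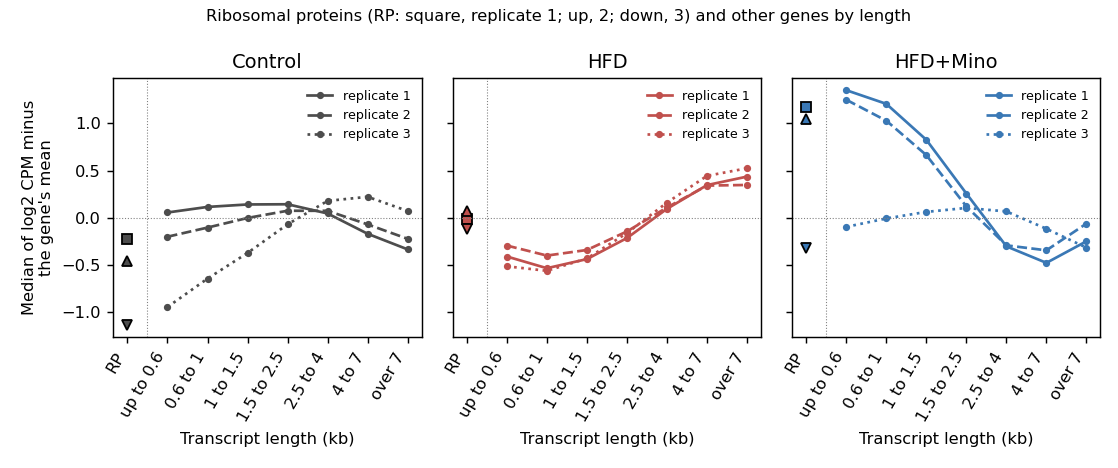
Lines give the median log2 CPM minus the gene's own mean (vertical axis) of genes outside the family in 7 classes of transcript length (horizontal axis, kb), for each mouse of the 3 groups, and the symbols at the left give the 78 ribosomal protein genes. The shortest class stood at 1.35 and 1.25 in HFD+Mino mice 1 and 2, at -0.10 in mouse 3, and between -0.51 and -0.29 in HFD, where the ribosomal protein genes lay between -0.12 and 0.07.

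The first question was whether the diet altered these genes. After HFD they were mostly higher than in Control, by a median log2 fold change of 0.50 where the median of all tested genes was 0.00, and 79 of 81 fold changes were above 0. By the quasi-likelihood test of edgeR, adjusted by Benjamini-Hochberg, 0 of 81 passed an FDR under 0.01 with a fold of at least 1.5, against 1.74% of all 17344 tested genes. At an unadjusted p under 0.05 there were 12 of 81, against 20.5% of all genes, and DESeq2 called 1, Rpl37a, as higher, where it called 3.69% of genes higher. At an FDR under 0.05 edgeR called that same 1 member, against 2.57% of all genes called higher. Without any test, all 3 HFD mice lay above all 3 Control mice in 46 of 81 genes and below them in 0, against 19.7% and 16% of all tested genes. A block for the mouse number in Control and HFD+Mino alone, whose same-numbered mice deviated together, was chosen after seeing the data. In that fit the median was 0.12 and 0 of 81 passed, a count whose share over all genes is not given here. Control entered it at the fitted level of mouse 1 and HFD as the mean of its mice. These values are therefore no block-adjusted effect of the diet.

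Rpl37a, a small zinc-binding protein of the large subunit (chromosome 1, 72711260 to 72713813), had the highest fold change. It measured 49.5, 44.6 and 25.7 CPM in Control, 106, 139 and 106 CPM in HFD, and 165, 154 and 49.4 CPM in HFD+Mino. The groups HFD and Control were well apart, with a log2 fold change of 1.55 ± 0.41 (SE, n = 3) and an adjusted p of 0.0499 by edgeR's quasi-likelihood test. Rps29, a small protein of the 40S head, measured 76.0, 55.9 and 31.1 CPM in Control and 120, 156 and 110 CPM in HFD, with a log2 fold change of 1.24 ± 0.44. Rps2, which lies at the entry of the message into the small subunit, measured 33.6, 32.7 and 24.3 CPM in Control and 58.5, 69.5 and 59.7 CPM in HFD, with a log2 fold change of 1.05 ± 0.30. The adjusted p was 0.137 for Rps29 and 0.0665 for Rps2 by edgeR, so neither passed, although no HFD mouse overlapped the Control mice in either gene. Rps27 (1.18), Rps23 (1.11), which lines the decoding center, and Rps28 (1.01) completed the 6 highest on the log2 scale, also without overlap and without passing.

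At the lower end stood Rpl3l, at 0.621, 0.734 and 0.177 CPM in Control and 0.402, 0.145 and 0.199 CPM in HFD. Those are too few reads to tell the groups apart (log2 fold change -1.07 ± 1.25). Rps27l, the paralog of Rps27 that is known as a p53 target, measured 49.8, 42.9 and 22.5 CPM in Control and 37.2, 38.6 and 31.6 CPM in HFD, a log2 fold change of -0.10 ± 0.39. The HFD mice lay within the spread of the Control mice. The next lowest log2 fold changes were those of Rpl6 (0.02), Rps15 (0.09), Rps6 (0.13) and Rpl28 (0.16), and their HFD and Control ranges overlapped.

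**Figure D3:**
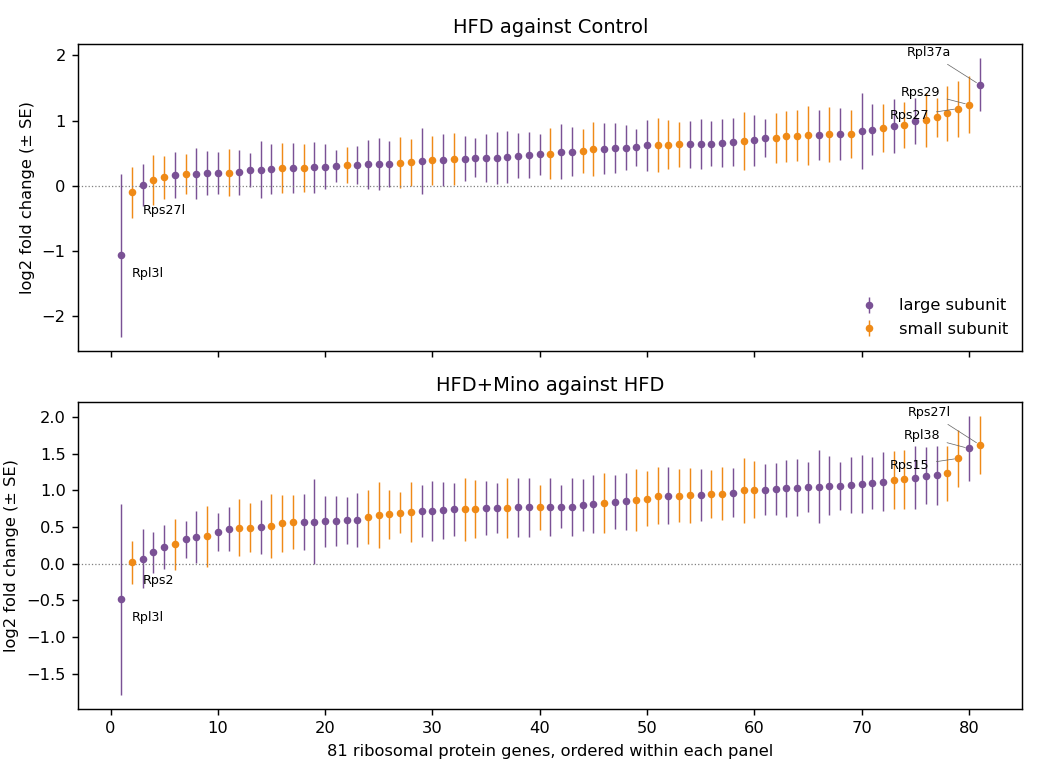
Points are the log2 fold changes of the 81 ribosomal protein genes (vertical axis, with SE from the edgeR model of 9 libraries), ordered within each comparison (horizontal axis) and colored by subunit. In HFD against Control they ran from -1.07 (Rpl3l) to 1.55 (Rpl37a), and in HFD+Mino against HFD from -0.48 (Rpl3l) to 1.62 (Rps27l).

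The role groups given next had medians from 0.34 to 0.66 in the comparison with Control. The stalk of the large subunit, which recruits the elongation factors, comprises Rplp0, Rplp1, Rplp2 and Rpl12 and had a median log2 fold change of 0.43, with values of 0.33 for Rplp0, 0.52 for Rplp1 and 0.58 for Rplp2. Rpl5 and Rpl11, which bind the 5S RNA and can inhibit Mdm2, had 0.43 and 0.33. Under the block in Control and HFD+Mino alone, Rplp0, Rplp1 and Rpl11 were at -0.0179, -0.0582 and -0.17. That fit set the mean of HFD against the fitted level of Control mouse 1. The 8 proteins around the peptide exit tunnel had a median of 0.34, the 32 other large subunit proteins 0.50, the 14 proteins of the small subunit head 0.66 and the 16 of its body and platform 0.60. In the head, 11 of 14 genes had all HFD mice above all Control mice, against 19.7% of all tested genes. Large subunit genes had a median of 0.44 and small subunit genes 0.63. None of the members in any of these roles passed the edgeR test, against 1.74% of all genes.

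Several single members have functions that are followed beyond the ribosome. Rps6, the substrate of S6 kinase, measured 101, 91.5 and 60.9 CPM in Control, 92.9, 94.7 and 88.8 CPM in HFD, and 202, 240 and 90.1 CPM in HFD+Mino. Its HFD mice lay inside the Control range. Rpsa, which also serves as the laminin receptor, measured 79.8, 66.9 and 51.5 CPM in Control, 129, 129 and 120 CPM in HFD, and 225, 159 and 69.0 CPM in HFD+Mino, so that HFD stood clear of Control with a log2 fold change of 0.93 ± 0.36 and an adjusted p of 0.168 by edgeR. Rps19, whose human counterpart is mutated in Diamond-Blackfan anemia, had a log2 fold change of 0.63 ± 0.38, and Rps27a, made as a fusion with ubiquitin, of 0.50 ± 0.39.

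The second question was whether minocycline altered the genes under the diet. In HFD+Mino the median log2 fold change against HFD was 0.77, where the median of all tested genes was 0.01, and 80 of 81 values were above 0. By the same test of edgeR 0 of 81 passed, against 4.15% of all tested genes. At an unadjusted p under 0.05 there were 37 of 81 and 41.3% of all genes, a share of the members near that of the background. DESeq2, which gave an adjusted p to 80 of the members, called 5 higher (Rps15, Rpl38, Rpl6, Rps16 and Rps27l), where it called 14.3% of genes higher. All HFD+Mino mice lay above all HFD mice in 3 members, Rpl6, Rps15 and Rps27l, against 23.3% of all genes.

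Rps27l, for which the third mouse still stood above HFD, measured 127, 153 and 50.8 CPM in HFD+Mino against 37.2, 38.6 and 31.6 CPM in HFD, with a log2 fold change of 1.62 ± 0.40 and an adjusted p of 0.0163 by edgeR. Rps15, a protein of the small subunit head, measured 105, 114 and 96.8 CPM in HFD and 408, 320 and 124 CPM in HFD+Mino (log2 fold change 1.43 ± 0.39). The groups did not overlap, but the third mouse was close to the HFD mice. Rpl38, a large subunit protein known for a skeletal phenotype in the mouse, measured 63.1, 80.2 and 64.5 CPM in HFD and 287, 252 and 78.8 CPM in HFD+Mino, with a log2 fold change of 1.57 ± 0.45 although the third mouse lay inside the HFD range. Rps16 (1.23), Rpl35 (1.20) and Rpl23 (1.20) came next on the log2 scale. At an FDR under 0.05, 11 members passed as higher, and so did 14.6% of all genes.

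Rpl37a and Rps2, among the 6 highest members in HFD against Control, were among the 6 lowest here, while Rps29 (0.51), Rps27 (0.74), Rps23 (0.37) and Rps28 (0.83), the other high ones, were not. These comparisons share the 3 HFD mice, so a high HFD level enters them with opposite sign and their values are only set side by side. Rpl37a had a log2 fold change of 1.55 for HFD against Control and 0.07 ± 0.40 for HFD+Mino against HFD, and Rps2 had 1.05 and 0.02 ± 0.29. Rpl22 (0.16), Rpl3 (0.23), which forms part of the peptidyl transferase center, and Rpsa (0.26) were also low in the second comparison, and Rpl3l had -0.48 ± 1.30 with no read in the first and second HFD+Mino mice. Under scaling by total counts alone, without TMM, the fold changes of Rps2, Rpl37a, Rpl22 and Rpl3 in HFD+Mino against HFD were slightly below 0.

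**Figure D4:**
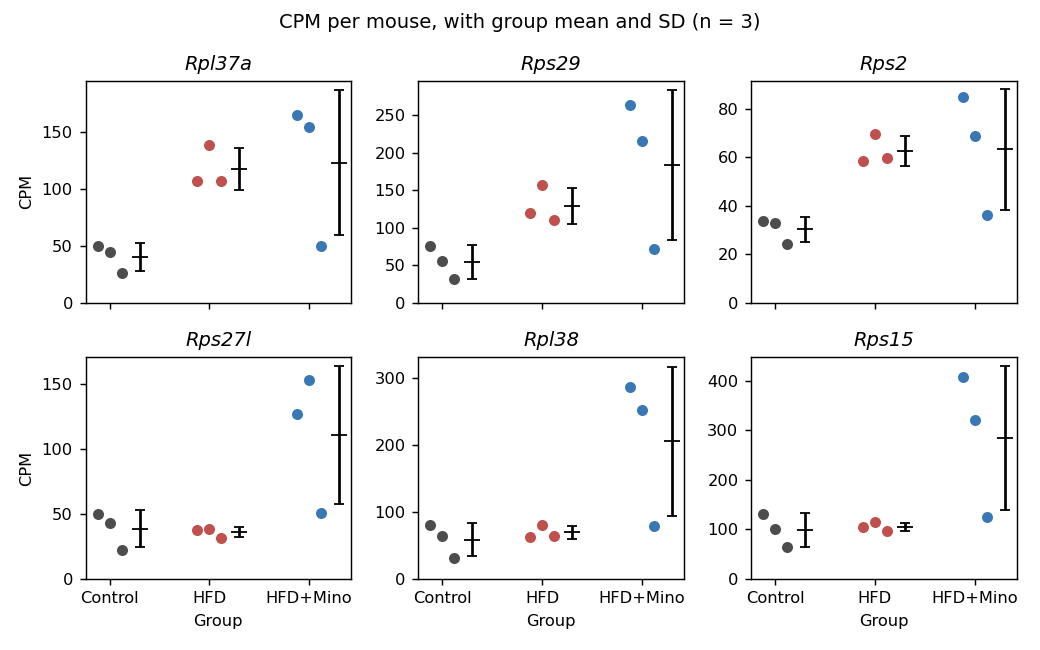
CPM (vertical axis, from 0) of 6 ribosomal protein genes in each mouse of the 3 groups (points), with the group mean and SD (n = 3) at the right of each group. Rpl37a, Rps29 and Rps2 were higher in all HFD than in all Control mice, while Rps27l, Rpl38 and Rps15 had HFD mice near the Control level. All 6 genes had a wide spread in HFD+Mino, where the third mouse lay well below the others.

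The counts of members called changed with the fit and with the third HFD+Mino mouse. Without it, 44 of 81 members passed edgeR's quasi-likelihood test as higher in HFD+Mino than in HFD, against 11.6% of all genes, and the median log2 fold change was 1.11, while 1 member, Rpl37a, passed as higher in HFD than in Control, against 0.88%. When each library's trend on transcript length was removed, the median of HFD+Mino against HFD turned to -0.33, and 3 members (Rpl37a, Rps29 and Rps2) passed as lower and 0 as higher, against 0.554% and 2.19% of all genes. The same correction left the median of HFD against Control at 0.63, with 6 members called higher (Rpl37a, Rps29, Rps2, Rps28, Rps18 and Rps27) and 0 lower, against 0.323% and 2.35% of all genes. With mouse 3 of HFD+Mino also left out, a fit chosen after seeing the data, 15 members passed as higher in HFD than in Control, against 0.516% of all genes, 2 as higher and 2 as lower in HFD+Mino than in HFD, against 6.51% and 2.66%, and 6 as higher in HFD+Mino than in Control, against 0.97%. With each library's length trend removed, Rpl37a had an adjusted p of 0.000514 by edgeR and a log2 fold change of 1.62 for HFD against Control, and -1.34 for HFD+Mino against HFD.

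HFD+Mino was also set against Control, which differs from it in both diet and drug. The median log2 fold change of the members was 1.34, against -0.02 over all tested genes, and 80 of 81 were above 0. By edgeR 0 of 81 members passed, against 0% of all tested genes, but 80 of 81 had an unadjusted p under 0.05 against 21.3% of all genes, with Rpl3l as the exception. DESeq2 called 16 members higher, where it called 1.36% of genes. All HFD+Mino mice were above all Control mice in 17 members against 8.93% of all genes. Without the third HFD+Mino mouse edgeR called 72 of 81 members higher, against 4.03% of all genes, with a median log2 fold change of 1.67. Same-numbered mice of Control and HFD+Mino deviated together, and with a block for the mouse number in these groups alone, chosen after seeing the data, edgeR called 59 members higher, against 2.68% of all genes. The same block gave 62 members higher in HFD+Mino than in HFD, against 13.9% of all genes. There HFD+Mino entered at the fitted level of mouse 1 and HFD as the mean of its mice. That count is therefore no block-adjusted comparison with HFD.

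The 3 members with the lowest p against Control were Rps27, Rps28 and Rpl41. Rps27 measured 49.7, 43.0 and 24.8 CPM in Control, 86.7, 102 and 78.5 CPM in HFD and 204, 189 and 53.8 CPM in HFD+Mino. Every mouse on the high-fat diet, with or without the drug, stood above every Control mouse. Its log2 fold change of HFD+Mino against Control was 1.93 ± 0.44, and those of Rps28 and Rpl41, the smallest ribosomal protein, were 1.83 and 1.67, all with an adjusted p of 0.132 by edgeR. In the 3-way test the p is for any difference among the 3 groups, and a call also needs HFD to be the highest or lowest group and 1.5-fold from their mean. By edgeR 0 of 81 members passed, against 2.13% of all tested genes, and 74 members had an unadjusted p under 0.05, against 39% of all genes. DESeq2's likelihood ratio test also called 0. Its own share over all genes is not given here, and the 2.13% of edgeR is no background for that count.

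Ratios between members of 1 library do not depend on how libraries are scaled. Rps27l and Rps27 encode alternative forms of the same small subunit protein, with median transcript lengths of 452 and 458 nt. The ratio of Rps27l to Rps27 was 1.00, 0.997 and 0.906 in Control, 0.429, 0.379 and 0.403 in HFD, and 0.622, 0.809 and 0.943 in HFD+Mino. The HFD mice were below all others, and the HFD+Mino and Control ranges overlapped. The exact two-sided permutation p was 0.1 for HFD against Control and 0.1 for HFD+Mino against HFD, the smallest that 3 against 3 mice allow, and 0.2 for HFD+Mino against Control. The ratio of Rps4l to Rps4x, the X-linked gene it resembles, was 2.24 ± 0.869 in Control, 2.25 ± 0.225 after HFD and 2.07 ± 0.557 after HFD+Mino (SD, n = 3), with exact permutation p of 1 and 0.8 for the first and second comparison.

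**Figure D5:**
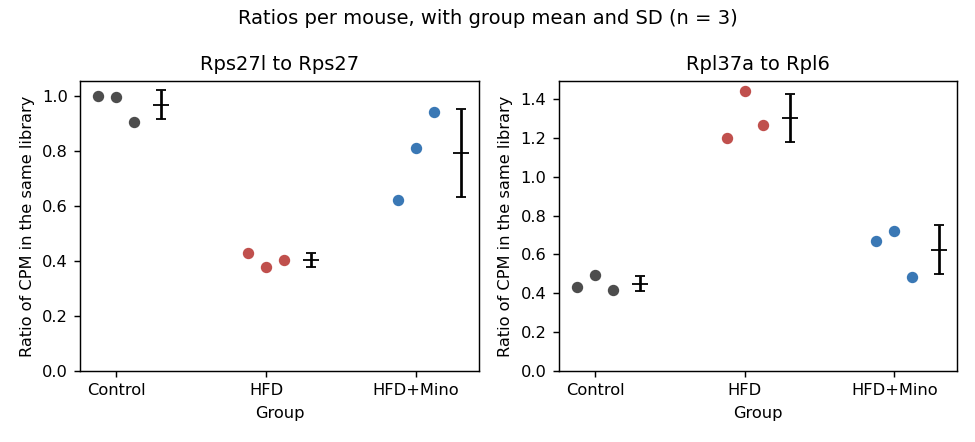
Ratio of CPM within the same library (vertical axis, from 0) for Rps27l to Rps27 and for Rpl37a to Rpl6 in each mouse (points), with the group mean and SD (n = 3). For Rps27l to Rps27 the HFD mice lay between 0.379 and 0.429 and all other mice at 0.622 or above, and for Rpl37a to Rpl6 the HFD mice lay at 1.20 or above and all others at 0.723 or below.

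Rpl37a and Rpl6 were paired after their values were seen, and their ratio is only a description. It was 0.434, 0.496 and 0.419 in Control, 1.20, 1.44 and 1.27 in HFD, and 0.670, 0.723 and 0.484 in HFD+Mino. Set against the median of the 78 genes in the same library, Rpl37a was 1.01 higher in HFD than in Control on the log2 scale and Rps29 0.74 higher, while the differences of Rps27l and Rpl6 were -0.61 and -0.52. Within the stalk, the ratio of Rplp1 to Rplp0 was 0.629 ± 0.0929 in Control, 0.734 ± 0.0455 after HFD and 0.904 ± 0.257 after HFD+Mino (SD, n = 3).

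Ribosomal protein genes outside the naming rule were compared next. A list of 8 such genes, with Rack1 and Fau among them, had median log2 fold changes of 0.32 for HFD against Control and 1.08 for HFD+Mino against HFD, and 0 of 8 passed the edgeR test in either, against 1.74% and 4.15% of all genes. Rps3a1, a small subunit protein, had 0.72 and 0.34. Rpl7l1, the paralog of Rpl7 that acts in assembly, had -0.30 and 0.66, and Rpl22l1, the paralog of Rpl22, had 0.62 and 0.82. The 78 mitochondrial ribosomal protein genes had a median of -0.35 for HFD against Control, with 4 of 78 above 0, where the cytosolic genes had 79 of 81. Against HFD, the HFD+Mino median of the mitochondrial set was 1.17, and all HFD+Mino mice were above all HFD mice in 71 of 78, against 23.3% of all tested genes. The 38 proteasome genes had medians of -0.43 and 1.10.

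Of 17 translation factors whose messages share the TOP start, 0 passed in HFD against Control and 1, Eef2, in HFD+Mino against HFD, against 1.74% and 4.15% of all genes. The median log2 fold changes were 0.21 and 0.24, and 14 and 11 of 17 were above 0. Eef2, which moves the ribosome along the message, measured 297, 255 and 273 CPM in Control, 506, 582 and 620 CPM in HFD, and 267, 197 and 230 CPM in HFD+Mino. The HFD mice stood clear of both other groups, which overlapped. Its log2 fold change was 1.05 ± 0.20 in HFD against Control, with an adjusted p of 0.0131 by edgeR, and -1.30 ± 0.20 in HFD+Mino against HFD, with an adjusted p of 0.00426, so that it fell in the second comparison. Eef1a1, which delivers aminoacyl-tRNA, had 1.27 ± 0.31 and -0.30 ± 0.31, and Eif4b, an RNA helicase cofactor, 0.94 ± 0.21 and -0.78 ± 0.21. All HFD mice lay above all Control and all HFD+Mino mice in Eef2 and Eif4b, 2 of the 17 factors. Taken singly, all HFD mice were above all Control mice in 8 factors and above all HFD+Mino mice in 2. Of 17263 tested genes outside the ribosomal protein family, 3373 and 4068 did so. The share of all genes that did both is not given here. The factors named were picked by the lowest p in HFD against Control, and both comparisons share the HFD mice. A high HFD level thus enters the comparisons with opposite sign. The same holds for most genes named below from the initiation, assembly, RNA polymerase I and mTORC1 lists.

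Among 25 initiation factors the medians were -0.06 and 0.28, and 0 passed in HFD against Control, against 1.74% of all genes. In HFD+Mino against HFD 2 passed, against 4.15% of all genes, where the helicase Eif4a1 rose (log2 fold change 1.00 ± 0.18, adjusted p 0.0072 by edgeR) and the scaffold Eif4g1 fell (-1.39 ± 0.27, adjusted p 0.00886 by edgeR). Eif3a, a subunit of the factor that holds the small subunit, had 0.69 and -0.68. Of 34 ribosome assembly genes 0 passed in either comparison, against 1.74% and 4.15% of all genes, and the medians were -0.11 and 0.18. Nucleolin (Ncl) had log2 fold changes of 0.44 and -0.62, Rrs1, which acts in large subunit assembly, 0.57 and -0.998, and Nol6, which acts in small subunit assembly, 0.99 and -1.64. With the trend on length removed, Ncl and Polr1a had HFD against Control values below 0.

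For RNA polymerase I, which transcribes the ribosomal RNA, 14 of 17 listed genes were tested and 0 passed in either comparison, against 1.74% and 4.15% of all genes. The medians were 0.03 and 0.19, and 9 of 14 log2 fold changes of HFD+Mino against HFD were above 0. The 3 genes with the lowest p in HFD against Control, picked on HFD mice that both comparisons share, were below 0 in HFD+Mino against HFD. Its initiation factor Rrn3 had 0.48 and -0.9997, the activator Ubtf 0.60 and -0.84, and the largest subunit Polr1a 0.46 and -0.90. The precursor of ribosomal RNA, Rn45s, which is no protein gene, ranged from 239 to 461 CPM in Control, from 3477 to 3829 CPM in HFD and from 426 to 1346 CPM in HFD+Mino. Its HFD libraries stood above all others.

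In the 16 genes of the mTORC1 branch that controls ribosome production, 0 passed in HFD against Control, against 1.74% of all genes, and 2 in HFD+Mino against HFD, against 4.15%. The medians were 0.51 and -0.62. Mtor, the kinase itself, measured 28.5, 32.1 and 52.8 CPM in Control, 92.9, 78.3 and 99.6 CPM in HFD, and 39.2, 35.1 and 29.0 CPM in HFD+Mino, and it fell in HFD+Mino against HFD by 1.39 on the log2 scale (adjusted p 0.00856 by edgeR). Its partner Rptor had log2 fold changes of 1.22 and -1.42, and the S6 kinase gene Rps6kb2 had -1.57 and 1.23. The translational repressor Eif4ebp1, named after its values were seen, rose in HFD+Mino against HFD by 2.08 ± 0.40 (adjusted p 0.00879 by edgeR). Mtor and Rptor were thus highest in HFD mice, and Rps6kb2 was lowest there. For genes of the lists outside the naming rule, HFD+Mino against HFD was not examined with the length trend removed.

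Marker genes of cell types and regions also differed between the punches. The 9 listed PVN neuropeptides and factors, with Avp, Oxt, Crh and Trh among them, summed to between 423 and 3010 CPM in Control, between 3121 and 4323 CPM in HFD, and to 38334, 32777 and 4133 CPM in HFD+Mino. HFD+Mino mice 1 and 2, with the highest ribosomal protein levels, had the highest PVN sums, whereas in Control mice 1 to 3 the PVN sums of 423, 1431 and 3010 CPM ran opposite to the ribosomal protein sums. Avp, with 1642981 reads over all libraries, and Oxt, with 731241, weigh most in these sums. The median deviation of the 9 genes from their means, on the log2 scale, was 0.67, 1.72 and 0.25 in HFD+Mino mice 1 to 3. In HFD mice it was 0.74, 0.39 and 0.66, so by this measure HFD+Mino mouse 1 did not stand above all HFD mice. Of the 9 genes only Otp was at 0 in any library, in 1. In HFD+Mino against HFD 6 of 9 log2 fold changes were above 0 and 0 passed, against 4.15% of all genes. The 8 choroid plexus and ependymal markers summed to between 21.1 and 133 CPM in Control, between 143 and 262 CPM in HFD and between 296 and 634 CPM in HFD+Mino, with 8 of 8 log2 fold changes of HFD against Control above 0 and none at 0 in any library. The 8 oligodendrocyte markers summed to 29514 CPM in Control mouse 1 and to between 2271 and 6944 CPM in the other mice. The 11 markers of neighbouring nuclei summed to 3459 CPM in Control mouse 2 and to between 85.4 and 531 CPM in the others, with Nr5a1 and Sox14 each at 0 in 1 library. Pmch (110496 reads) and Hcrt (32108) weigh most in that sum. The median deviation of the 11 was 0.89 in Control mouse 2 and 0.90 in HFD+Mino mouse 2. The 10 microglial markers summed to between 335 and 663 CPM, the 8 astrocyte markers to between 4476 and 6965 CPM and the 6 endothelial markers to between 147 and 415 CPM. The part of these differences in the ribosomal protein values was not tested.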

How the data were processed

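PVN punches of 9 mice were sequenced after cDNA amplification with a low-input kit and transposase fragmentation. Reads were aligned to mm10 with HISAT2 and assigned to genes with featureCounts, and the authors deposited unnormalized read counts per gene. Strand and multi-mapping settings are not given in the sources used here. All 9 columns were used, 0 were left unused, and 958 of 27179 rows lack a symbol. The table holds counts only, with no molecular identifiers, so reads are not independent molecules and errors come from the spread between mice. Mice of a group differed by more than the noise of counting, with chi-square values of 21.0 to 324 for each degree of freedom.

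Counts were analysed with edgeR 4.0.16 (limma 3.58.1) in R 4.3.3, with filterByExpr, TMM scaling and one quasi-likelihood model with a mean per group over all 9 libraries. Genes were called at an FDR under 0.01 and at least 1.5-fold. CPM use TMM-scaled library sizes, log2 CPM a prior count of 2, and SDs are over 3 mice. The family medians have no p. Alternatives were DESeq2 1.42.0, RLE or total-count scaling, other filters and thresholds, ribosomal RNA and mitochondrial genes left out, a replicate block, length or GC trends removed and each mouse left out. Tables and figures used Python 3.11.15, pandas 2.3.3 and matplotlib 3.10.9. The code was tested on simulated data.

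Same-numbered mice of Control and HFD+Mino had positively correlated deviations from their group means (0.135, 0.163 and 0.292). The correlations were negative for Control and HFD (-0.133, -0.109 and -0.00624) and for HFD and HFD+Mino (-0.152, -0.125 and -0.0522), some of them similar in size. Mouse numbers here, and in the replicate block over all groups, are those of the sample titles. The deposited columns number the HFD mice differently, and HFD mice were not compared by column number. No source used here names a shared batch or day, and the pairing is read from the counts.

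Members and lists were chosen with earlier results of these data known. Genes named were those of known roles, the 6 highest and 6 lowest fold changes of HFD against Control and of HFD+Mino against HFD, the 4 highest and lowest levels per kilobase, the 3 lowest p of each list outside the rule, and the 3 lowest p of HFD+Mino against Control, not all of which are reported here. Rps4x, Rps18 and Rn45s fall outside this rule and were named after their values were seen. Lengths came from GENCODE for 21573 genes (80 of 81 members, Rpl6l lacking one) and positions from RefSeq for GRCm38.p6 for 25271 genes (all 81 members). The 22 members without a start window are not shown with one.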

Additional observations from a re-analysis of the deposited data

How the results depend on the processing

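With 3 mice per group, 1 mouse can decide a count. Leaving out each mouse in turn gave 0 to 1 called members for HFD against Control, 0 to 44 for HFD+Mino against HFD, 0 to 72 for HFD+Mino against Control and 0 to 1 in the 3-way test. The upper ends came without HFD+Mino mouse 3, where 3.08%, 21.4%, 6.28% and 13.4% of all genes were called. The medians then ran from 0.29 to 0.68, from 0.52 to 1.11 and from 1.09 to 1.67 on the log2 scale. DESeq2 called 1, 5 and 16 members in the 3 comparisons (7.83%, 26.1% and 1.8% of all genes). An FDR under 0.05 gave 1 for HFD against Control and 11 for HFD+Mino against HFD (5.77% and 27.4% of all genes). No filter on low counts gave 3 for HFD+Mino against HFD and 1 in the 3-way test (7.61% and 5.19% of all genes), and GC correction 1 for HFD+Mino against HFD (7.66%). The replicate block over all groups gave 1 for HFD+Mino against HFD (7.89% of all genes) and moved no other count or median of the family.

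Removing the length trend gave 6 called for HFD against Control, 3 for HFD+Mino against HFD and 4 in the 3-way test (2.68%, 2.74% and 2.33% of all genes), and medians of -0.33 for HFD+Mino against HFD and 0.30 for HFD+Mino against Control. The next fits were added after seeing the data. The replicate block in Control and HFD+Mino alone gave 62, 59 and 7 called for HFD+Mino against HFD, against Control and in the 3-way test (26%, 3.18% and 18.3% of all genes), and a median of 0.12 for HFD against Control. With the length trend also removed it gave 5 for HFD against Control, 4 for HFD+Mino against HFD and 2 in the 3-way test (3.92%, 9.36% and 6.27%), with medians of -0.20 and 0.28. In both fits Control and HFD+Mino entered at the fitted level of mouse 1, and HFD as the mean of its mice. Only HFD+Mino against Control is a block-adjusted comparison there. The length trend removed in the 8 libraries other than HFD+Mino mouse 3 gave 15, 4, 6 and 5 (3.06%, 9.17%, 1.3% and 6.18%), with medians of -0.18 for HFD+Mino against HFD and 0.48 for HFD+Mino against Control. The cause of these changes was not tested, beyond the fewer libraries or genes that a fit used.

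Of the named genes, some changed sign, and not all of these were near 0 in the main fit. For HFD against Control that fit gave 0.52 for Rplp1, 0.38 for Rpl39, 0.33 for Rpl11 and 0.33 for Rplp0. In the values below, the block in Control and HFD+Mino alone takes these groups at the fitted level of mouse 1. HFD is taken there as the mean of its mice, so comparisons with HFD are not block-adjusted. For HFD against Control the block in Control and HFD+Mino alone gave -0.0179 for Rplp0, -0.0582 for Rplp1, -0.17 for Rpl11, -0.14 for Rps6, -0.0518 for Rpl39, -0.39 for Rpl6, -0.43 for Rps15 and -0.34 for Rpl28, and with the length trend -0.0394 for Rps15 and -0.19 for Ncl. The block over all groups gave 0.0005 for Rps27l, and for HFD+Mino against HFD -0.0602 for Rps2 and -0.10 for Rpl37a. Rpl6 was at -0.009 without a filter and -0.0385 with GC correction. The length trend removed gave -0.12 for Ncl and -0.0641 for Polr1a, and for HFD+Mino against HFD -1.03 for Rps2, -1.34 for Rpl37a, -0.0705 for Rpl22, -0.55 for Rpl3 and -0.0608 for Rpsa. With the block in Control and HFD+Mino alone as well, the last comparison gave -0.96 for Rps2, -1.24 for Rpl37a and -0.62 for Rpl3. In the 8 libraries it gave -0.90 for Rps2, -1.19 for Rpl37a and -0.31 for Rpl3, with -0.12 for Ncl and -0.0601 for Polr1a in HFD against Control. Total-count scaling moved the median of all genes to -0.18 for HFD+Mino against HFD and gave -0.22 for Rps2, -0.18 for Rpl37a, -0.0667 for Rpl22 and -0.0098 for Rpl3. Leaving out each mouse gave ranges of -0.0625 to 0.27 for Rps6, -0.37 to 0.13 for Rps27l, -0.19 to 0.24 for Rpl6, -0.14 to 0.35 for Rps15 and -0.0439 to 0.40 for Rpl28 in HFD against Control. In HFD+Mino against HFD they were -5.997 to 0.0686 for Rpl3l, -0.25 to 0.30 for Rps2, -0.20 to 0.44 for Rpl37a, -0.0512 to 0.52 for Rpl3 and -0.14 to 0.61 for Rpsa. RLE scaling, a mean count of at least 50 and leaving out ribosomal RNA and the mitochondrial genome reversed none of these genes.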
